A study of Homo sapiens with 6 samples.

Results

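The 4 human alkaline phosphatase genes, ALPI (intestinal), ALPP (placental), ALPG (placental-like or germ cell, also written ALPPL2) and ALPL (tissue-nonspecific), were followed through 6 RNA-seq libraries of gastric cancer cells. They were taken by name from the 51103 genes in the tables, and they were chosen by their measured values: ALPI and ALPP had been seen to be far lower in libraries with a NINJ1 vector than in controls. That difference is therefore described here without a test. A test was run only on the difference between cell lines among the NINJ1 libraries, which did not choose the genes.

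The study transduced AGS cells, derived from a gastric adenocarcinoma, and HGC-27 cells, derived from an undifferentiated carcinoma of the stomach, with a lentivirus for overexpression of NINJ1 or with a negative control. NINJ1 (ninjurin-1) is an adhesion molecule of the cell surface and breaks the membrane open in lytic death. Polyadenylated RNA of cells lysed after 48 hours gave 1 control and 2 NINJ1 libraries for AGS and as many for HGC-27, and all 6 carried a lentivirus of one kind or the other. The labels do not say that replicates were separate cultures, so every p-value measures only the spread between these libraries.

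Alkaline phosphatases are enzymes held on the outer face of the plasma membrane by a glycosylphosphatidylinositol (GPI) anchor, where they remove phosphate groups from extracellular substrates. ALPI sits on the brush border of enterocytes and detoxifies bacterial lipopolysaccharide; ALPP and ALPG belong to placenta and germ cells and are known as ectopic tumour antigens. ALPL acts in bone, liver and kidney, where it clears the mineralization inhibitor pyrophosphate and dephosphorylates vitamin B6, and its loss causes hypophosphatasia.

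Total counts ran from 12619684 to 18175697 per library. The titles and the file names gave opposite lines for the second NINJ1 library of each line. Libraries are called here by the line in the file name, so AGS NINJ1 2 is the one titled HGC-27 replicate 2 and HGC-27 NINJ1 2 the one titled AGS replicate 2. Of 15 genes counted 100 times or more in each undisputed HGC-27 library and never in those of AGS, HGC-27 NINJ1 2 held at least 10 counts of 15 and AGS NINJ1 2 of 0. For the opposite profile, 13 genes in all, these figures were 0 and 13. The HGC-27 control stood apart from the other 5 libraries: genes with a GC content over 60% gave 2.31% of its counts and 9.25% to 11.3% elsewhere. The transcripts of ALPI, ALPP, ALPG and ALPL have GC contents of 62.2%, 61.6%, 62.5% and 59.6%, against a median of 48.0% over 15308 genes with a mean of at least 10 counts, so NINJ1 differences from that control are also given after a correction for GC content. Levels and counts are given as deposited. NINJ1 itself had 402 counts in the control of AGS and 261 and 221 in its NINJ1 libraries, so it was lower in the libraries labelled NINJ1 (log2 -0.68, SE 0.19, edgeR quasi-likelihood test with Benjamini-Hochberg adjusted p = 0.0148, and 0.26 without AGS NINJ1 2). Its counts in HGC-27 were 71 in the control and 264 and 300 with NINJ1 (log2 1.89, SE 0.24, edgeR adjusted p = 3.22e-08). The GC correction brought that difference to log2 0.58 (edgeR adjusted p = 0.0334).

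ALPP, ALPG and ALPI lie side by side on the plus strand of chromosome 2, and ALPL lies alone on chromosome 1 (GRCh38). ALPP (ENSG00000163283) spans chr2:232378534-232382889, ALPG (ENSG00000163286) chr2:232406843-232410714 and ALPI (ENSG00000163295) chr2:232456123-232460032, with gaps of 24.0 and 45.4 kb between them. Each of these has 11 exons in its longest annotated transcript. ALPL (ENSG00000162551) spans chr1:21509372-21578412 on the plus strand and has 12 exons.

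The 160 bases before the RefSeq start sites of the 3 clustered genes are shown because these genes are neighbours whose levels differ between libraries, and the sequences show how alike their proximal promoters are (RefSeq, GRCh38.p14, 5′ to 3′, plus strand). Capitals mark the letters TTTAAA, a variant of the TATA box, and AGGTCA, letters that many nuclear receptors bind. The stretches are chr2:232455993-232456152 for ALPI, chr2:232378591-232378750 for ALPP and chr2:232406684-232406843 for ALPG.
ALPI: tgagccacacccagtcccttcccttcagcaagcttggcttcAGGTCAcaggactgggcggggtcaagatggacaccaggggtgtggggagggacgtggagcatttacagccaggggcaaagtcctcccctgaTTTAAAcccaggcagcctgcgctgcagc
ALPP: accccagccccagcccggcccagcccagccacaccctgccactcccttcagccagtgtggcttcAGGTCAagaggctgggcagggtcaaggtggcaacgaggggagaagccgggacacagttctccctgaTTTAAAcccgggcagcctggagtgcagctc
ALPG: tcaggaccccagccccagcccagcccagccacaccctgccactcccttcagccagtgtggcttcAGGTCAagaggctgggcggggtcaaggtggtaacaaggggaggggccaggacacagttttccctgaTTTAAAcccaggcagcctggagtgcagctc

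All 3 held one TTTAAA, starting at -28 in ALPI and at -30 in ALPP and ALPG, and one AGGTCA, starting at -119 in ALPI and at -96 in the other two. On either strand, TTTAAA was found in 11.3%, AGGTCA in 12.1% and both together in 1.40% of 35116 RefSeq windows of 250 bases before a start. GGGCGG, the letters of a GC box, started at -106 in ALPI and at -83 in ALPG, was not in the ALPP window and was found in 42.6% of all windows. Over 250 bases, ALPP and ALPG were identical at 84.4% of 256 aligned columns, while ALPI was identical to ALPP at 56.6% and to ALPG at 57.0%. The table lists 3 starts for ALPL, none with TTTAAA in its window, and their GC contents were 60.4%, 83.6% (with 4 GGGCGG) and 49.6%. These matches describe letters and are not evidence of binding.

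ALPI reached the highest level of the 4 genes, in the AGS control. It was counted 6081 times there, and 290 and 202 times in AGS NINJ1 1 and AGS NINJ1 2. In the HGC-27 control it had 88 counts, and in HGC-27 NINJ1 1 and HGC-27 NINJ1 2 it had 9 and 16. Both controls lay above both NINJ1 libraries of the same line. Per length, the level of ALPI was 165.6 FPKM in the AGS control, where it ranked 121st among 23396 genes with a count, and 8.73 and 5.78 FPKM in the AGS NINJ1 libraries. In the HGC-27 libraries ALPI was at 1.84, 0.236 and 0.404 FPKM.

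ALPP, the placental enzyme, was detected in every library and varied less. The AGS control held 2283 counts of it and the AGS NINJ1 libraries 476 and 403. In HGC-27 it had 1043 counts in the control and 471 and 438 with NINJ1. The 4 NINJ1 libraries of both lines thus lay between 403 and 476 counts, all below both controls. Its levels were 53.5, 12.3 and 9.92 FPKM in AGS and 18.8, 10.6 and 9.52 FPKM in HGC-27.

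ALPG, the placental-like enzyme next to ALPP, had few counts in AGS and more in HGC-27. The AGS control held 92 counts of it, well above the 16 and 17 of the AGS NINJ1 libraries. In HGC-27 it had 205 counts in the control and 175 and 225 with NINJ1, so the NINJ1 libraries lay on either side of the control. Per length, ALPG was at 2.65, 0.509 and 0.514 FPKM in AGS and 4.52, 4.85 and 6.00 FPKM in HGC-27.

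ALPL, the tissue-nonspecific enzyme, was measured in AGS only. The AGS control held 508 counts of it and the AGS NINJ1 libraries 150 and 149, or 12.1, 3.95 and 3.73 FPKM. The HGC-27 control and HGC-27 NINJ1 1 held 4 counts each and HGC-27 NINJ1 2 held 0, which allows up to 3, so no NINJ1 difference was detectable for ALPL in HGC-27 at this depth. In these bulk samples, fewer cells expressing a gene and less RNA per cell cannot be told apart.

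**Figure D1:**
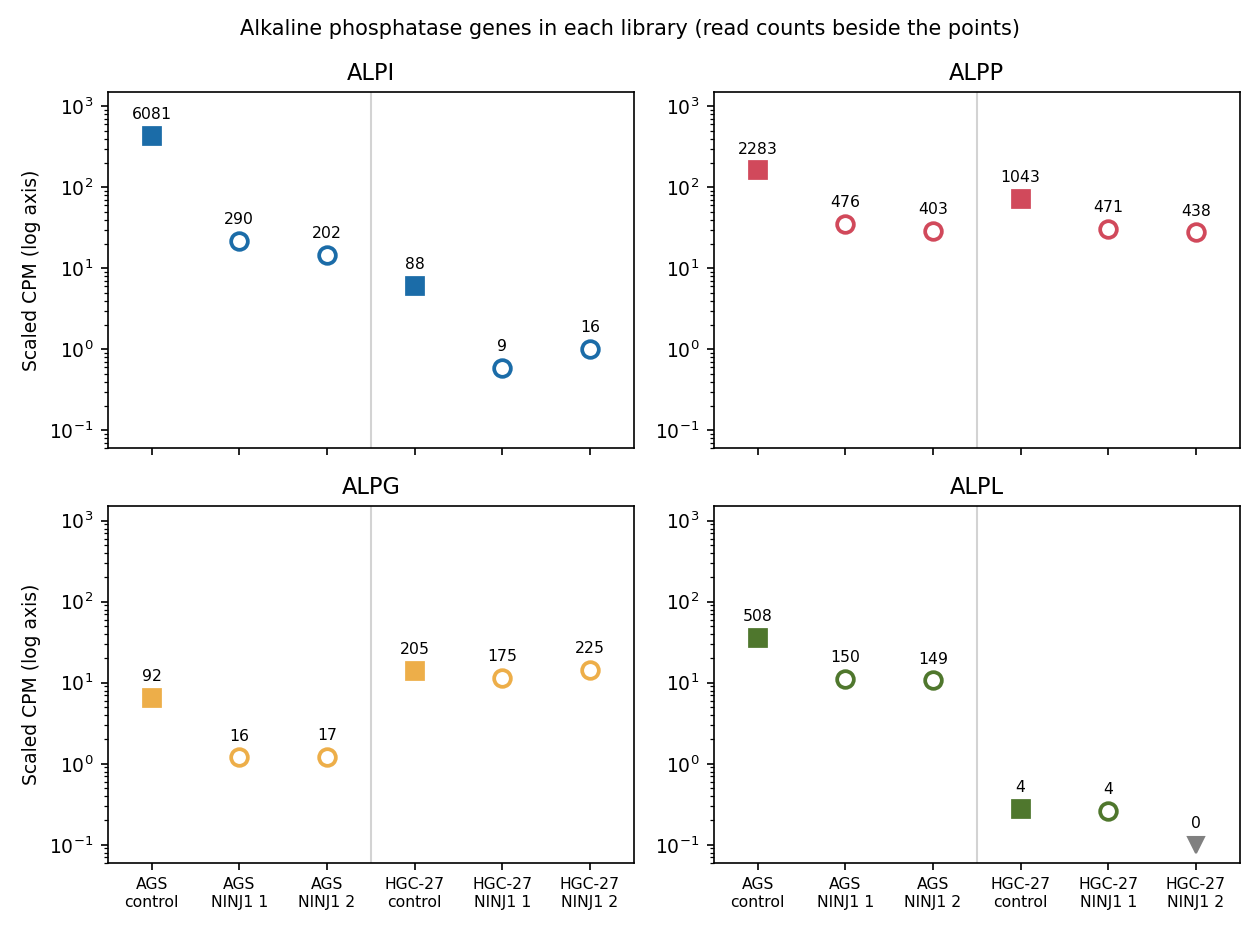
Scaled CPM (library-size-normalised counts, log axis) of ALPI, ALPP, ALPG and ALPL in each of the 6 libraries, with filled squares for controls, open circles for NINJ1 libraries, read counts printed beside the points and a grey triangle at the bottom for 0 counts. ALPI spans from 6081 to 9 counts, while the ALPP counts of the 4 NINJ1 libraries lie between 403 and 476.

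ALPP and ALPG share stretches of transcript, so reads could not always be assigned to one of them. Of all 100-base words in their longest transcripts, 379 were the same, which is 13.2% of ALPP and 15.8% of ALPG; ALPI and ALPL shared none with any other alkaline phosphatase gene. With words of 50 bases the shares were 25.4% and 29.3%, and ALPI shared 38 words (1.52%), while with 150 bases they were 7.05% and 8.49%. How the counting treated reads that fit both genes is not given in the sources used here, and the read length is not given either, so the counts of ALPP and ALPG are uncertain by an amount that was not determined. The ratio of ALPP to ALPG per length was 20.2, 24.25 and 19.3 in AGS, control first, and 4.15, 2.19 and 1.59 in HGC-27. Whether ALPG counts in AGS hold reads of ALPP was not tested. ALPP also overlaps an antisense gene, AC068134.1, which had 0 counts in all 6 libraries.

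The mix of isozymes differed between the lines and between control and NINJ1 libraries. The summed level of the 4 genes was 233.9 FPKM in the AGS control, with 25.5 and 19.95 FPKM in the AGS NINJ1 libraries. In HGC-27 it was 25.2 FPKM in the control and 15.8 and 15.9 FPKM with NINJ1. ALPI gave 70.8% of the sum in the AGS control, but 34.21% and 28.98% in its NINJ1 libraries, where ALPP was the leading gene with 48.3% and 49.7%. ALPL gave 5.18% in that control and 15.5% and 18.7% with NINJ1, although its own level was lower there. In HGC-27, ALPP led in every library, with 74.5% in the control and 67.3% and 59.8% with NINJ1. There ALPG was second, with 18.0% in the control and 30.7% and 37.7% with NINJ1. The ratio of ALPI to ALPP per length was 3.10 in the AGS control, 0.708 and 0.583 in the AGS NINJ1 libraries, and 0.0981, 0.0222 and 0.0425 in HGC-27. These shares are a description of 1 control and 2 NINJ1 libraries per line. They and the sums carry no GC correction, so comparisons with the HGC-27 control depend on how that library is treated.

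**Figure D2:**
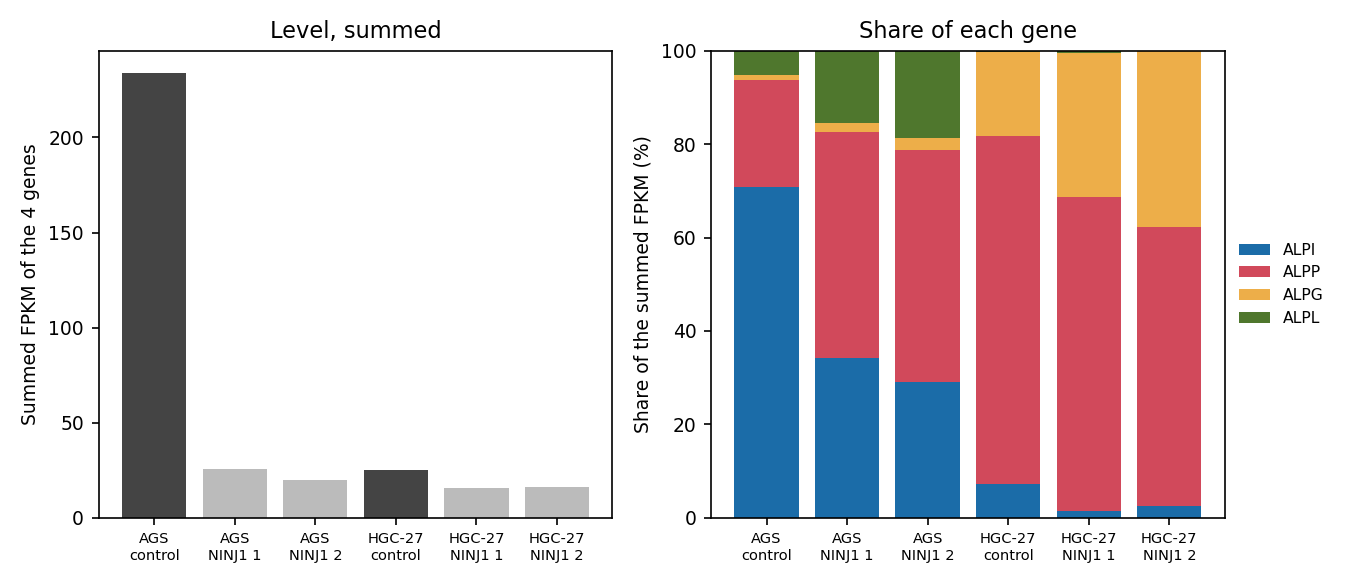
Summed FPKM of the 4 alkaline phosphatase genes (left; dark bars for controls, light bars for NINJ1 libraries) and the share of each gene in that sum in percent (right) in the 6 libraries. The sum is 233.9 FPKM in the AGS control and at most 25.5 FPKM in every other library, and ALPI gives 70.8% of it in the AGS control only. The values carry no GC correction, which bears on the HGC-27 control.

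In AGS, all 4 alkaline phosphatase genes were lower in both NINJ1 libraries than in the control. ALPI was 23.75-fold lower (log2 -4.57, SE 0.16), and the 2 libraries taken singly gave 19.8-fold and 29.5-fold. ALPP was 5.00-fold lower (log2 -2.32, SE 0.15; 4.54-fold and 5.56-fold singly). ALPG was 5.34-fold lower (log2 -2.42, SE 0.33; 5.44-fold and 5.31-fold) on far fewer counts, whose separation from reads of ALPP is uncertain. ALPL was 3.27-fold lower (log2 -1.71, SE 0.23; 3.20-fold and 3.35-fold). The SE comes from the spread of the NINJ1 pairs in both lines, since each line has 1 control, which is assumed to vary like them.

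Counted from the lowest log2 difference, ALPI ranked 48th, ALPG 288th, ALPP 311th and ALPL 615th of 17617 tested genes in AGS. Among these genes 9.3% were called lower and 5.73% higher by edgeR at an adjusted p under 0.05, and the choice of genes leaves nothing to read from the 4 against that share. With the GC correction the AGS values were -4.34 for ALPI, -2.11 for ALPP, -2.18 for ALPG and -1.55 for ALPL. Over 13 alternative settings, which leave out the reading of the lines by title, the AGS log2 difference of ALPI ran from -4.88 to -4.31, that of ALPP from -2.47 to -2.11, that of ALPG from -2.44 to -1.27 and that of ALPL from -1.74 to -1.44.

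**Figure D3:**
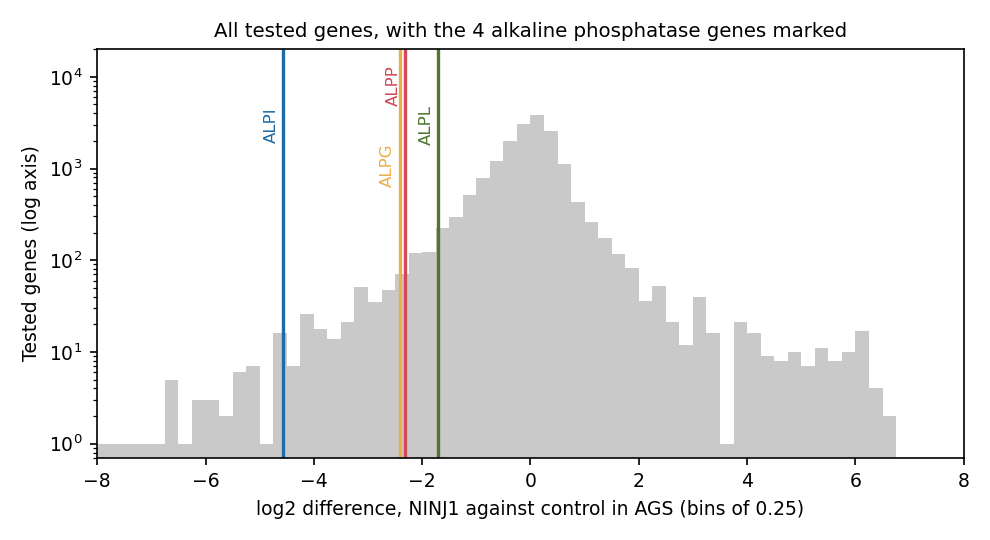
Number of tested genes (log axis) by log2 difference between the NINJ1 libraries and the control in AGS, in bins of 0.25, with values beyond 8 in either direction placed in the outermost bins and vertical lines at the 4 alkaline phosphatase genes. ALPI lies at -4.57, ALPG at -2.42, ALPP at -2.32 and ALPL at -1.71.

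In HGC-27, ALPI and ALPP were lower with NINJ1 as well, and ALPG was not clearly so. ALPI was 7.46-fold lower (log2 -2.90, SE 0.34; 10.3-fold and 5.96-fold in the single libraries), on 9 and 16 counts against 88. ALPP was 2.45-fold lower (log2 -1.29, SE 0.15; 2.34-fold and 2.58-fold). ALPG had log2 -0.13 (SE 0.24), with HGC-27 NINJ1 1 1.24-fold below and HGC-27 NINJ1 2 1.01-fold above the control. On the deposited FPKM the ALPG difference had the other sign (log2 0.26). Of 17617 genes 29.1% were called lower and 34% higher in HGC-27, so a call is common in this comparison, whose control is the library low in GC-rich genes.

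The GC correction lowered the HGC-27 values of these GC-rich transcripts to log2 -5.02 for ALPI, -3.32 for ALPP and -2.31 for ALPG. The fold by which each was lower went from 7.46 to 32.5 for ALPI, from 2.45 to 10.0 for ALPP and from 1.10 to 4.96 for ALPG. Over the 13 alternatives, the titles left out, the HGC-27 difference ran from -5.02 to -1.11 for ALPI, from -3.32 to -0.84 for ALPP and from -2.31 to 0.26 for ALPG. The ALPI value nearest to 0 came from limma on log2(FPKM + 1), a scale that understates the change of low genes. The size of the HGC-27 differences, and for ALPG whether there was any, therefore turned on how that control is treated. Without the correction ALPI and ALPP were lower by less in HGC-27 than in AGS, and with it they were lower by more, so no order between the lines is given.

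With lines read from the titles, the libraries with 290 and 16 counts of ALPI would form one group and those with 9 and 202 the other. The AGS differences would then be -5.25 for ALPI, -2.35 for ALPP, 0.26 for ALPG and -2.68 for ALPL, and the HGC-27 differences 0.31 for ALPI, -1.27 for ALPP and -1.15 for ALPG. With the second NINJ1 library of both lines left out, the values were -4.31, -2.18, -2.44 and -1.68 in AGS for ALPI, ALPP, ALPG and ALPL, and -3.37, -1.22 and -0.30 in HGC-27 for ALPI, ALPP and ALPG.

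Whether the lines differ in their alkaline phosphatases was tested among the 4 NINJ1 libraries, 2 per line. ALPI was higher in AGS, ALPG was higher in HGC-27, and ALPP did not pass, while the call of ALPL is not read. ALPI stood at a mean scaled CPM (library-size-normalised count after TMM scaling) of 18.1 in AGS and 0.803 in HGC-27, 22.2-fold higher in AGS (log2 4.47, SE 0.25, edgeR adjusted p = 2.78e-16). ALPG stood at 1.21 in AGS and 12.9 in HGC-27, 10.6-fold lower in AGS (log2 -3.40, SE 0.27, edgeR adjusted p = 1.54e-12). ALPL had 299 counts in the 2 AGS libraries and 4 in those of HGC-27, 48.5-fold higher in AGS with the library at 0 set to 3 counts and the 4 taken as exact. It passed the filter on low counts only through AGS libraries, so it could be called only as higher there and no test is read from it. ALPP stood at 32.3 and 29.3 CPM (log2 0.14, 95% interval -0.13 to 0.41, edgeR adjusted p = 0.43), so a difference of up to log2 0.41 is within its interval.

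With ALPL left aside, ALPI was thus called higher in AGS and ALPG lower, where 20.2% and 20% of all 17617 tested genes were called in those directions. The adjusted p of ALPI and ALPG stayed at or below 0.000553 in every alternative that gave a test on all 4 NINJ1 libraries, other than the lines as titled. Under the titles none of the 4 genes passed. In the controls, given side by side because there is 1 per line, the scaled CPM in AGS and HGC-27 was 429.4 and 6.07 for ALPI, 161.2 and 71.9 for ALPP, 6.50 and 14.1 for ALPG, and 35.9 and 0.276 for ALPL. The HGC-27 control values here carry no GC correction, so no direction is read from them.

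**Figure D4:**
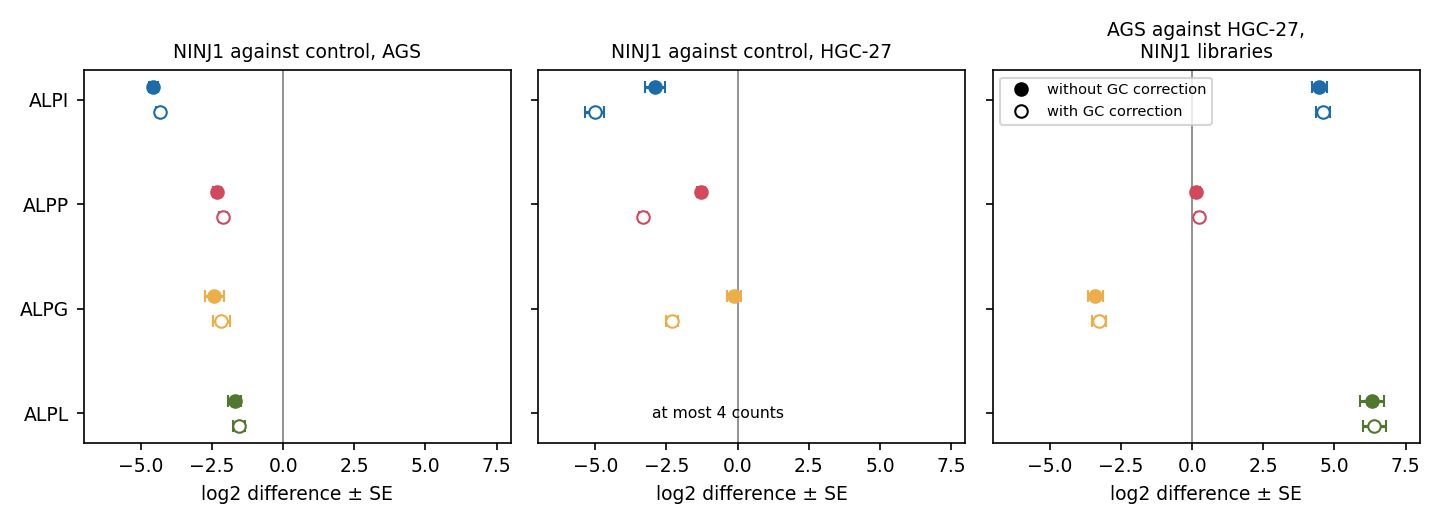
log2 difference with its SE for each alkaline phosphatase gene in the 3 comparisons, with filled points for the values without and open points for those with the GC correction. The pairs of points lie close in AGS and between the lines, while in HGC-27 the correction moves ALPI from -2.90 to -5.02 and ALPG from -0.13 to -2.31.

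The genes around the chromosome 2 cluster were examined next, since ALPP, ALPG and ALPI lie together there. Of 24 other genes that start within 500 kb of a cluster member, 8 had a mean of at least 10 counts and 4 had no count. In AGS 3 of those 8 were called lower and 0 higher with NINJ1, where 9.3% and 5.73% of all tested genes were. One of the 3, PRSS56, reached a mean of 10 counts only through the AGS control, so it could enter only as lower and its call is not read. PRSS56, a serine protease gene 64.3 kb from the start of ALPI (chr2:232520463-232525716), was counted 78 times in the AGS control, 2 times in each AGS NINJ1 library and 0 times in every HGC-27 library. TIGD1 fell by 1.08 (SE 0.26, adjusted p = 0.00361) and EFHD1, a mitochondrial calcium-binding protein gene, by 0.76 (SE 0.18, adjusted p = 0.00263) on the log2 scale, both with edgeR. Without AGS NINJ1 2 neither of these passed (edgeR adjusted p = 0.0629 and 0.0901), nor did they with DESeq2 (adjusted p = 0.146 and 0.0669).

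EIF4E2, a cap-binding protein gene 93.9 kb from ALPI, had 382, 381 and 390 counts in AGS (log2 0.07, SE 0.18, edgeR adjusted p = 0.849). GIGYF2, its partner in translational repression, was at log2 0.02 (SE 0.17, edgeR adjusted p = 0.954), the sign turning to -0.02 with the GC correction. DIS3L2 (-0.17), SNORC (-0.57) and AC073254.1 (-0.28) did not pass either. ECEL1, 31.7 kb beyond the start of ALPI, lay under the mean of 10 counts and is named after its values were seen: 35 reads came from the AGS control and 0 from the other 5 libraries. TIGD1 overlaps the start of EIF4E2, and without a stated strand setting their reads cannot be told apart where they overlap.

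In HGC-27, where 34% of all genes were called higher and 29.1% lower, 2 of the 8 neighbours were called higher and 1 lower. With the GC correction both higher calls ended, EFHD1 going from log2 1.66 to 0.17 (edgeR adjusted p = 0.781) and SNORC from 2.45 to -0.01 (1), while the noncoding AC073254.1 was lower either way (-2.02 and -2.78). Among NINJ1 libraries 5 of the 8 were higher in AGS than in HGC-27 and 0 lower, where 20.2% and 20% of all genes were called. TIGD1, one of the 5, no longer passed there with the GC correction (log2 0.54, edgeR adjusted p = 0.0582). Around ALPL on chromosome 1, 6 of 25 genes had a mean of at least 10 counts. There HSPG2, which encodes the basement membrane proteoglycan perlecan, fell by 1.52 in AGS on the log2 scale (SE 0.12, edgeR adjusted p = 4.33e-11), from 9448 counts to 3251 and 3089. EIF4G3 and RAP1GAP fell by 0.51 and 0.50 (edgeR adjusted p = 0.00507 and 0.0418), and USP48, ECE1 and NBPF3 did not pass. With the GC correction RAP1GAP was at -0.31 and no longer passed. The calls of EIF4G3 and RAP1GAP ended when AGS NINJ1 1 was left out (edgeR adjusted p = 0.159 and 0.127) or AGS NINJ1 2 was (0.0783 and 0.367).

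**Figure D5:**
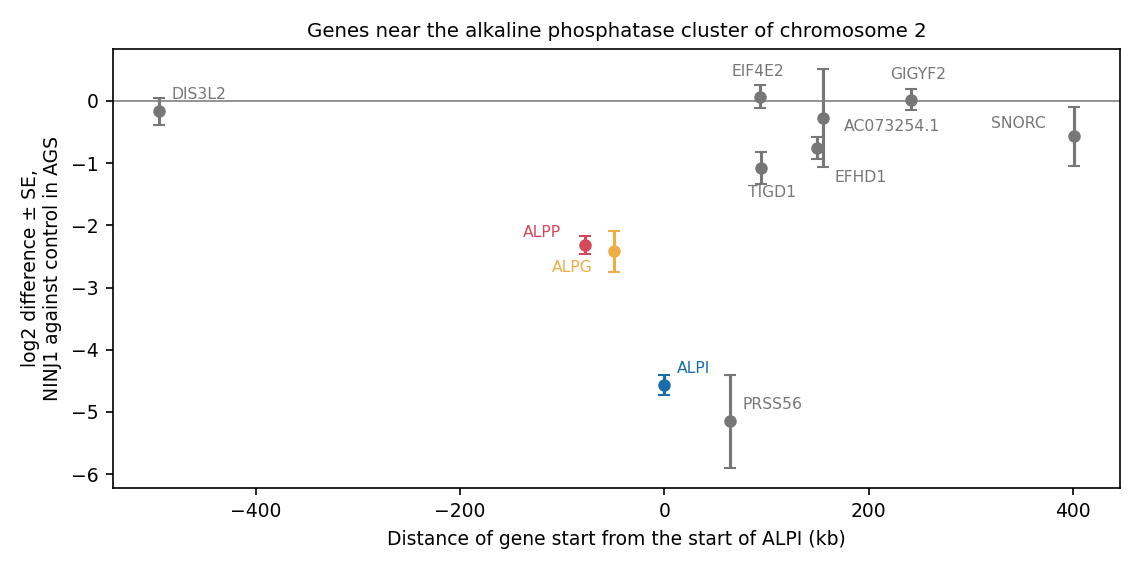
log2 difference with its SE between NINJ1 libraries and control in AGS, against the distance in kb of each gene's start from the start of ALPI, for the 3 clustered alkaline phosphatase genes (coloured) and the 8 neighbours with a mean of at least 10 counts (grey). ALPI and PRSS56 lie lowest, PRSS56 with 2 counts in each NINJ1 library, and EIF4E2 and GIGYF2 lie at 0.07 and 0.02.

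Counts in the lists that follow for AGS stand against 5.73% of all tested genes called higher and 9.3% called lower, with a median log2 difference of 0.00. A gene that passed the filter on low counts through the AGS control alone could be called only as lower, which bears on lists with low counts. In the list of phosphate and pyrophosphate handling, 1 of 15 tested genes rose and 2 fell (median log2 -0.08). SLC20A2, a sodium-phosphate cotransporter, rose by 0.49 (edgeR adjusted p = 0.0491), and LHPP, a phosphohistidine and pyrophosphate phosphatase, fell by 0.81 (edgeR adjusted p = 0.0307). With the GC correction LHPP was at -0.62 and no longer passed. SMPDL3B, a phosphodiesterase-like protein and 1 of the 2 that fell, had 33, 8 and 7 counts (log2 -2.07, edgeR adjusted p = 0.0432). It passed the filter on low counts only through the AGS control, so it could be called only as lower and its call is not read. ENPP1, which makes pyrophosphate from ATP, had 274, 280 and 270 counts in the 3 AGS libraries and did not pass (edgeR adjusted p = 0.883). PHOSPHO1, the other phosphatase of bone matrix vesicles, had 42 counts or fewer in every library. ENPP1 and PHOSPHO1 are named after their values were seen. SLC20A2, LHPP and SMPDL3B did not pass without AGS NINJ1 1 (edgeR adjusted p = 0.19, 0.0698 and 0.123) or without AGS NINJ1 2 (0.314, 0.209 and 0.212), and the first 2 did not with DESeq2 (adjusted p = 0.221 and 0.305).

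The list of extracellular nucleotide and adenosine handling holds ectonucleotidases, adenosine deaminase, nucleoside transporters and receptors for ATP and adenosine, and 2 of its 14 tested genes fell and 0 rose (median 0.12). ENTPD2 fell by 1.34 (SE 0.22, edgeR adjusted p = 4.77e-05) and ENTPD8 by 1.50 (SE 0.42, edgeR adjusted p = 0.0127), both membrane ectonucleotidases, while ENTPD1 (CD39) was at log2 0.59 and did not pass (edgeR adjusted p = 0.0636). NT5E (CD73), which like alkaline phosphatase makes adenosine from AMP on a GPI anchor and is named after its values were seen, had 828, 1000 and 1038 counts in AGS and did not pass (edgeR adjusted p = 0.128; 0.0149 without HGC-27 NINJ1 1 and 0.015 without HGC-27 NINJ1 2). ENTPD1 passed without either of those libraries (edgeR adjusted p = 0.0157 and 0.0156), and the call of ENTPD8 ended without AGS NINJ1 2 (0.108), with the GC correction (0.0607) and with DESeq2 (adjusted p = 0.26). In vitamin B6 metabolism 1 of 7 genes fell, SHMT2, a serine hydroxymethyltransferase that uses the vitamin as cofactor, by 0.41 (edgeR adjusted p = 0.0242). PDXK, the kinase that phosphorylates the vitamin inside cells, was at -0.28 and did not pass (edgeR adjusted p = 0.138; 0.0105 and 0.0099 without HGC-27 NINJ1 1 or 2). The call of SHMT2 ended without AGS NINJ1 1 (edgeR adjusted p = 0.226) and without AGS NINJ1 2 (0.254).

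Of 29 tested genes of GPI anchor synthesis and attachment 2 rose and 4 fell in AGS (median 0.05). DPM3, a subunit of dolichol-phosphate mannose synthase, fell by 1.32 (SE 0.25, edgeR adjusted p = 0.00034), PIGZ, a mannosyltransferase of the pathway, by 1.53 (SE 0.40, edgeR adjusted p = 0.00809) and GPAA1, a subunit of the GPI transamidase, by 0.53 (SE 0.14, edgeR adjusted p = 0.00929). GPAA1 was at -0.23 after the GC correction and no longer passed (edgeR adjusted p = 0.158). Without AGS NINJ1 2 the calls of PIGZ and GPAA1 ended (edgeR adjusted p = 0.0903 and 0.278), and that of PIGZ with DESeq2 (adjusted p = 0.251).

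Among 25 other genes whose proteins carry a GPI anchor, 2 rose and 7 fell in AGS (median -0.09). MSLN, mesothelin, went from 2424 counts in the control to 800 and 725 (log2 -1.61, SE 0.13, edgeR adjusted p = 8.56e-11). In HGC-27 it went the other way, from 138 counts to 3199 and 3739 (log2 4.55, and 1.91 with the GC correction). In AGS, EFNA1, an ephrin ligand, fell by 1.11 (edgeR adjusted p = 3.69e-07) and PRNP, the prion protein, rose by 0.96 (edgeR adjusted p = 2.01e-05). Of 4 tested acid phosphatase genes, ACP6 and ACPP, the prostatic form, fell by 1.10 and 1.58 (edgeR adjusted p = 0.00988 and 0.0291), and ACP2, a lysosomal form, was at -0.30 (0.256). Neither ACP6 nor ACPP passed when AGS NINJ1 2 was left out (edgeR adjusted p = 0.188 and 0.212), nor ACPP when AGS NINJ1 1 was (0.0778).

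ALPI is a marker of enterocytes, but most other enterocyte genes were near 0 in these libraries. Of 26 brush border and enterocyte genes, VIL1, SI, LCT, MGAM, DPP4, FABP1, FABP2, APOA1 and APOA4 were among 15 with at most 10 counts in any library, and the intestinal transcription factors CDX1 and CDX2 had at most 3. Of the 11 tested, 4 fell and 1 rose in AGS (median -0.80), 1 of the 4 being MYO1A, at 13 counts in the control against 0 and 0. MYO1A passed the filter on low counts only through the AGS control, so its call is not read. USH1C, a scaffold of intermicrovillar adhesion, went from 1022 counts to 308 and 311 (log2 -1.67, SE 0.16, edgeR adjusted p = 4.76e-09). ESPN, an actin bundler of microvilli, fell by 0.94 (edgeR adjusted p = 1.30e-05), and PLS1, plastin-1, rose by 0.59 (edgeR adjusted p = 0.0104; 0.0523 without AGS NINJ1 1 and 0.205 without AGS NINJ1 2). ANPEP, an aminopeptidase of the brush border named after its values were seen, had 2305, 1670 and 1653 counts in AGS (log2 -0.42, edgeR adjusted p = 0.0365) and at most 100 in HGC-27. Its AGS call ended when GC content was corrected for (edgeR adjusted p = 0.0626) and when AGS NINJ1 1 (0.198) or AGS NINJ1 2 (0.346) was left out.

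Of 19 tested regulators that have been reported for ALPI or enterocyte genes, 3 fell and 0 rose in AGS (median -0.12). HNF4A, a nuclear receptor of gut and liver epithelium, went from 166 counts in the AGS control to 19 and 31 (log2 -2.67, SE 0.28, edgeR adjusted p = 1.75e-08). Its counts in HGC-27 were 396 in the control and 109 and 103 with NINJ1 (log2 -2.00, SE 0.23, edgeR adjusted p = 2.28e-09). The GC correction gave log2 -2.64 there. HNF4A was thus lower in the NINJ1 libraries of both lines, but among the NINJ1 libraries its level was lower in AGS (log2 -1.90, SE 0.26, edgeR adjusted p = 3.24e-07), the reverse of ALPI. ELF3, an epithelial ETS factor, and THRA, a thyroid hormone receptor, fell by 1.09 and 0.63 in AGS (edgeR adjusted p = 7.75e-07 and 0.00339; for THRA 0.111 without AGS NINJ1 2).

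Markers of tissues where ALPP, ALPG and ALPL are normally found were mostly near 0 too. Of 20 trophoblast and germ cell genes 7 were tested, and 13 had at most 10 counts in every library, among them CGB3, CGB5, GCM1 and NANOG. PRAME and TFAP2C, named after their values were seen, were not near 0, at 485 to 622 and 271 to 333 counts per library. In AGS 1 of the 7 rose (SOX17, from 1 count to 10 and 11, edgeR adjusted p = 0.0278) and 2 fell (TFAP2A by 0.58 and POU5F1 by 0.91, edgeR adjusted p = 0.00557 and 0.041). SOX17 and TFAP2A no longer passed without AGS NINJ1 2 (edgeR adjusted p = 0.0811 and 0.181) and POU5F1 without AGS NINJ1 1 (0.301). CGA, the alpha subunit of chorionic gonadotropin, named after its values were seen, had 1356 to 1617 counts in HGC-27 and 28 to 60 in AGS. Of 19 osteoblast and mineralization genes 7 were tested, and SP7, BGLAP, IBSP and SPP1 had at most 10 counts. In AGS RUNX2, the osteoblast master regulator, went from 152 counts to 51 and 38 (log2 -1.71, SE 0.34, edgeR adjusted p = 0.000462; 0.0948 with DESeq2), and it had at most 9 counts in HGC-27. COL1A1 fell by 1.36 (edgeR adjusted p = 8.65e-08) and ATF4 rose by 0.43 (edgeR adjusted p = 0.035; 0.0719 without AGS NINJ1 1 and 0.441 without AGS NINJ1 2).

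Of the marker lists for cell types, epithelial genes had a summed level of 134.7 to 208.2 FPKM per library. Much of it came from KRT8 and KRT18, at 64.2 and 72.0 of 175.9 FPKM in the AGS control. KRT19 had at most 10 counts in each library, and CDH1 had 4, 3 and 0 in AGS and 51, 20 and 18 in HGC-27. KRT18 and CDH1 are named after their values were seen. In AGS 3 of 7 tested fell and 0 rose, led by CLDN7, a tight junction protein (log2 -1.61, SE 0.22, edgeR adjusted p = 1.40e-06), and KRT8 fell by 0.44 (edgeR adjusted p = 0.0164; 0.167 without AGS NINJ1 1 and 0.223 without AGS NINJ1 2). The leukocyte markers PTPRC, CD3E, CD79A, LYZ and CD68 had at most 10 counts in every library, and SRGN was seen in HGC-27 only, at 2122 to 11617 counts against 0 to 2 in AGS. Fibroblast and endothelial markers summed to 11.4, 3.96 and 3.35 FPKM in the 3 AGS libraries, control first, and to 1.54, 5.54 and 5.92 FPKM in HGC-27. In AGS 4 of 5 tested fell, among them PDGFRB (log2 -2.45, SE 0.26, edgeR adjusted p = 1.64e-08) and PECAM1 (log2 -2.73, SE 0.57, edgeR adjusted p = 0.000925) and DCN on 7 counts against 0 and 0, while COL1A2, LUM and VWF had at most 10 counts. They were lower in the same AGS libraries as the alkaline phosphatases, and their part in the result was not tested.

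In HGC-27 the same lists had calls in both directions, against 34% of all genes called higher and 29.1% lower, and the counts moved with the GC correction. Phosphate and pyrophosphate genes had 5 higher and 7 lower of 15 (4 and 6 with the correction), and the list of nucleotide and adenosine handling 7 and 2 of 14 (4 and 3). In the latter list ENTPD2 was the ectonucleotidase called higher, at log2 3.48 without the correction and 1.12 with it. Genes of GPI anchor synthesis had 13 higher and 11 lower of 29 (9 and 6), and other GPI-anchored proteins 15 and 6 of 25 (6 and 8). The ALPI regulators had 8 higher and 10 lower of 19, which became 1 and 10 with the correction, and brush border genes 2 and 3 of 11 (0 and 3). Vitamin B6 genes went from 5 higher and 2 lower of 7 to 2 and 1. Of named genes that fell in AGS, COL1A1 and CLDN7 were higher with NINJ1 in HGC-27, at log2 2.37 and 2.73 (0.42 and 1.04 with the correction). USH1C and PECAM1 were lower there too, at log2 -0.48 and -2.59 (-1.59 and -2.72 with the correction).

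Between the lines, among NINJ1 libraries, other GPI-anchored proteins had 10 of 25 genes higher and 9 lower in AGS, and brush border genes 5 of 11 higher and 2 lower, where 20.2% and 20% of all genes were called. The list of nucleotide and adenosine handling had 5 of 14 higher and 1 lower, and trophoblast and germ cell genes 1 of 7 higher and 2 lower. NT5E was higher in AGS by log2 2.17 (SE 0.14, edgeR adjusted p = 6.93e-15) and ANPEP by 4.40 (SE 0.15, edgeR adjusted p = 3.65e-22). MSLN was lower in AGS by log2 -2.00 (SE 0.12, edgeR adjusted p = 6.43e-16) and CGA by -4.96 (SE 0.19, edgeR adjusted p = 1.18e-20). NT5E, ANPEP and CGA were picked from their values, so no likeness to ALPI or ALPG is read from their directions.

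The genes whose profile over the 6 libraries lay nearest to that of ALPI were searched among 17617, by the Euclidean distance of centred log2 CPM. They were P2RX1, an ATP-gated ion channel (distance 2.60), the zinc finger gene ZNF117 (2.82), PDE3B, a cyclic nucleotide phosphodiesterase (2.87), AQP1, a water channel (3.06), and SV2B, a synaptic vesicle protein (3.08). P2RX1 had 135, 7 and 11 counts in AGS and 5, 0 and 0 in HGC-27, and AQP1 187, 23 and 21 and 5, 2 and 4. ALPL lay at 3.47 from ALPI, ALPP at 5.88 and ALPG at 9.56.

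ALPP had closer companions: EDN1, the vasoconstrictor peptide endothelin-1 (0.448), COL4A5, a basement membrane collagen chain (0.513), AC120049.1 (0.619), FBLN2, a matrix fibulin (0.638), and AC099344.3 (0.657). EDN1 had 363, 97 and 87 counts in AGS and 200, 95 and 104 in HGC-27, and COL4A5 1484, 468 and 381 and 916, 470 and 402. AC120049.1 had only 10, 1 and 0 in AGS and 5, 0 and 1 in HGC-27. AC099344.3 had 12, 0 and 0 and 5, 0 and 0, so the likeness of both rests on few reads. These lists turned on the measure of likeness: Pearson correlation kept 0 of the 5 genes near ALPI and 2 of those near ALPP, and GC-corrected values kept 1 and 1. The 6 points share 2 lines and 2 treatments, so such likeness is a description of those libraries.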

How the data were processed

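Polyadenylated RNA of 6 libraries was measured. The submitters' processing notes name GRCh38, HISAT2 and HTSeq 0.13.5; an annotation release, strand setting and read length are not given in the sources used here. The deposited tables hold a raw count and an FPKM value per gene, per the file headers. The authors' FPKM equals the count divided by 1 length per gene and the library total, to a relative departure of at most 8.32e-09 over 6974 genes with at least 200 counts. All 51103 identifiers were found in GENCODE release 29, which gave coordinates and GC content of the longest transcript. Promoters came from RefSeq.

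Counts were tested with edgeR 4.0.16 (R 4.3.3): 1 mean per line and treatment over 6 libraries, lines as in file names, filterByExpr with a minimum of 10 (17617 genes), TMM scaling, two-sided quasi-likelihood tests, Benjamini-Hochberg adjusted p under 0.05. The GC correction used a lowess of each library's log2 deviation on GC (span 0.3) as offset. On simulated counts for the AGS comparison, 193 of 200 genes changed 4-fold and 10 of 17415 unchanged ones were called. The simulation gave every library, the lone control included, the same fixed spread, which was not estimated from these data. It changed only genes above a minimum mean count. It therefore cannot show how a control that varies otherwise, or a gene with few counts, would act. A count of 0 allows up to 3 counts; this floor covers counting error only.

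The alternatives were lines as titled, DESeq2 1.42.0 and its size factors, limma 3.58.1 on log2(FPKM + 1) and log2(FPKM + 0.1), no filter, the GC correction, a replicate block and each library left out. The alkaline phosphatase genes, the gene lists and the tests were chosen with earlier results of these data known. Named genes are the alkaline phosphatase genes, NINJ1, genes starting within 500 kb with a mean of at least 10 counts, up to 3 genes per list with the smallest p in AGS, and the 5 nearest to ALPI and to ALPP; the text says which others were picked from their values.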

Additional observations from a re-analysis of the deposited data

How the results depend on the processing

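With lines as titled, edgeR called 0 genes in AGS (595 at an unadjusted p under 0.05; main count 2648), 2149 in HGC-27 (11103) and 0 between the lines (19 unadjusted; 7084), and ALPI and ALPL no longer passed between the lines (log2 0.58 and 0.03). Values whose sign turned under the titles were ALPI in HGC-27 (0.31), ALPG in AGS (0.26) and between the lines (0.29) and, in AGS, GPAA1 (0.18), ACP6 (0.75), ACP2 (0.02), SRGN (8.95), EIF4E2 (-0.24), GIGYF2 (-0.30), USP48 (-0.08), ENPP1 (-0.25) and NT5E (-0.38), and between the lines NT5E (-0.05), MSLN (0.19) and CGA (0.08). DESeq2 called 1266 genes in AGS and 4676 between the lines. Limma called 950 in AGS on log2(FPKM + 1) and 793 on log2(FPKM + 0.1). Leaving out 1 library moved the AGS count from 935 to 4712: leaving out AGS NINJ1 2 (by file name) gave 935 and AGS NINJ1 1 gave 1438, while 4712 were called when HGC-27 NINJ1 1 was dropped and 4702 when HGC-27 NINJ1 2 was. A lone library is assumed to vary like the other groups.

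ALPG in HGC-27 had log2 0.21 and 0.25 with limma (pseudocounts 1 and 0.1), 0.26 on the deposited FPKM and -0.32 to 0.01 with 1 library left out. ALPP between the lines ran from -0.01 to 0.28 with 1 library left out, without a call. In AGS, GIGYF2 was at -0.02 with the GC correction and at -0.14 to 0.17 with 1 library left out, and AC073254.1 at -0.96 to 0.19. ENPP1 was at -0.02 with the GC correction. Of the genes called in HGC-27, 53.9% were higher with edgeR, 70.7% with limma on log2(FPKM + 1) and 75.2% with lines as titled; the median of all genes there was log2 0.12 with edgeR and 0.32 with limma. Replicate numbers did not pair the libraries (the replicate 1 deviations of the lines had a correlation of 0.00841 across 17617 genes). With a replicate block 7188 genes were called between the lines, and each alkaline phosphatase gene stayed on its side of the threshold. The causes of these shifts were not tested. ALPI in HGC-27, ALPG in AGS and ALPL in HGC-27 rest on few reads, and each comparison with a control on 1 library.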
